A study of Mus musculus with 6 samples.

Results

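Kinesins are motor proteins that move along microtubules or take them apart. Their genes were selected here as every gene whose symbol is Kif followed by digits and at most one letter a, b or c, which gave 37 of the 24786 gene symbols in the table of counts. By textbook role, 12 of them are mitotic kinesins, 13 are transport kinesins of interphase cells, 6 act at cilia or centrioles and 6 have mixed or other roles. RNA was sequenced from wild-type mouse intestinal organoids, cultured epithelial structures grown from gut stem cells, that had been broken into single cells for 10 min. In the tyramine group, 3 libraries came from organoids kept for 16 h with 100 µM tyramine, an amine that gut bacteria make from tyrosine. In the control group, 3 libraries came from organoids without tyramine. The controls are labelled DMSO, a solvent, whereas the design text speaks of control medium, so it is not given whether both groups held the same solvent. The labels do not say that replicates are separate animals or cultures, so the tests reflect library-to-library spread, part or all of which may be technical.

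The libraries held 28316372 to 35035955 counts, and 12139 genes had enough counts to be tested. The epithelial markers Epcam and Vil1 were present in every library, at 1004 to 1143 and 617 to 979 CPM (counts normalised to library size and composition) with tyramine, against 1413 to 1464 and 2130 to 2277 CPM in controls. Of the 9 epithelial markers, all tested, 4 fell and 2 rose, against 13.3% and 12.5% of all genes tested. Epcam, Vil1, Cdx2 and Lgals4 fell, Cdh1 and Krt18 rose, and Krt8, Krt20 and Cdx1 were called in neither direction. The 9 summed to 16550 to 18310 CPM with tyramine and 18070 to 19010 CPM in controls, mostly from Krt8, Krt20 and Krt18. The summed level of the 6 fibroblast markers was 8.01 to 8.34 CPM with tyramine and 9.02 to 9.19 CPM in controls, and endothelial and immune markers summed to 2.19 CPM or less in every library. The 3 muscle markers summed to 15 to 22.1 CPM with tyramine and 11.5 to 11.8 CPM in controls. Values of the cycling, enteroendocrine and ciliated cell markers are given beside the kinesins they bear on.

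In a dividing cell, mitotic kinesins push the spindle poles apart, carry and align chromosomes, shorten microtubules and organise the midzone where the cell is cut. Their transcripts accumulate late in the cell cycle and are scarce in resting cells. Transport kinesins carry vesicles, organelles and RNA toward the microtubule plus end, and in the gut epithelium they serve cells whether or not these divide.

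Nearly all mitotic kinesin transcripts were much lower in the tyramine libraries, while transport kinesins showed smaller differences in both directions. Of the 12 mitotic members, 10 fell, 0 rose, Kif18a was not past the threshold and Kif2b had 0 counts in all 6 libraries (edgeR's quasi-likelihood test, the threshold being an adjusted p of 0.05 after Benjamini and Hochberg). Kif2a, which acts at spindle poles and also in resting cells, was placed outside these 12, among the mixed or other roles, and it rose. Of the 13 transport members, 3 rose, Kif1c fell, 8 were not past the threshold and Kif17 had too few counts to test. For comparison, 13.3% of all genes tested fell and 12.5% rose. The median log2 fold change, tyramine over control, was -4.90 over the 11 tested mitotic members, 0.22 over the 12 tested transport members and 0.00 over all genes tested. Setting Kif4, which had 0 counts with tyramine, to its lower bound left the mitotic median at -4.90. All 10 that fell did so at least 2-fold, which held for 9.1% of all genes tested, and 7 of them at least 16-fold, which held for 2.27%. All 11 tested mitotic members had every tyramine library below every control library, a pattern that 23.6% of all genes tested shared. So had 2 transport members, Kif1c and Kif13b. Another 5 transport members had every tyramine library above every control library, as had 20.9% of all genes tested. In total 30 of the 37 members were tested. Of these, 7 mitotic and 3 cilium members reached the count minimum in the control libraries only, so they could enter the test only through the group in which they were high. In bulk RNA, fewer cells of a type and less RNA per cell cannot be told apart.

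**Figure D1:**
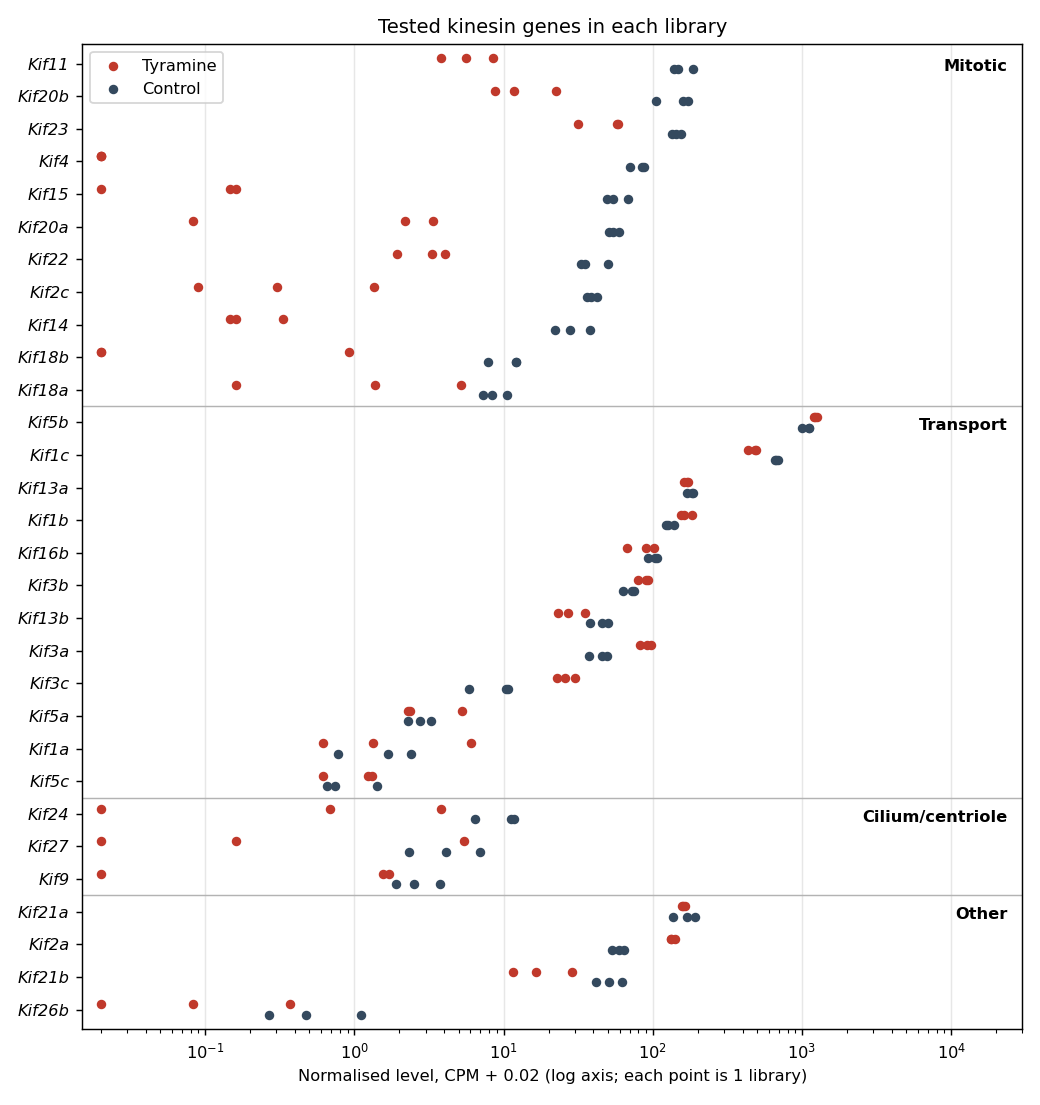
Level of each of the 30 tested kinesin genes in each library, as CPM + 0.02 on a log axis, with tyramine libraries in red above control libraries in dark blue and genes grouped by role. The 11 mitotic genes have all red points left of all dark points, whereas most transport genes have both colours near each other.

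Summed per kilobase of exon, so that genes of different length can be added, mitotic kinesins had 7.64, 12.7 and 11.4 CPM per kb in tyramine replicates 1 to 3, against 105, 116 and 129 CPM per kb in control replicates 1 to 3. They made up 2.09% to 3.48% of this kinesin level with tyramine and 24.3% to 26.8% in controls. The transport kinesins summed to 305 ± 6.32 CPM per kb with tyramine and 298 ± 8.02 CPM per kb in controls (SD, n = 3 each), ranges that overlapped. Most of each sum came from Kif5b and Kif1c, at 153 and 64.5 CPM per kb with tyramine and 135 and 92.4 in controls. The sum therefore does not show how single members changed. The whole set fell within 360 to 366 CPM per kb with tyramine and 431 to 479 CPM per kb in controls.

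**Figure D2:**
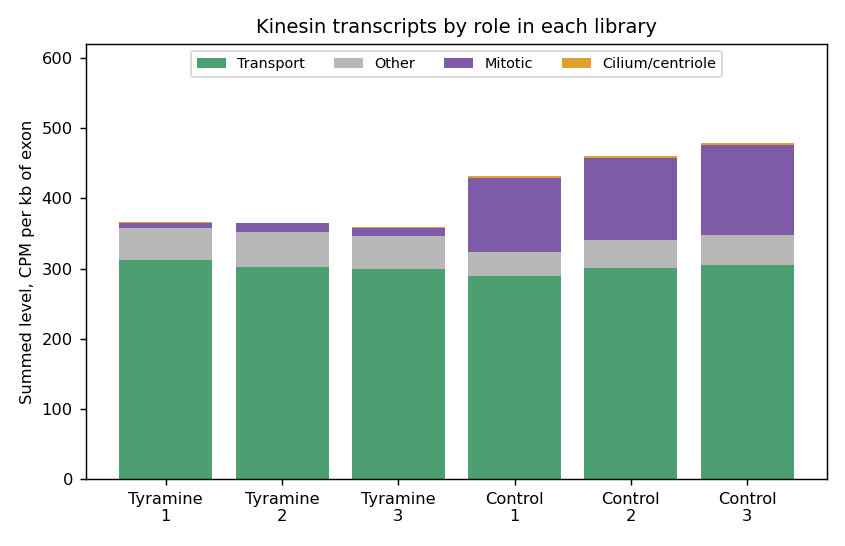
Summed level of kinesin transcripts, in CPM per kb of exon, stacked by role for each library. The mitotic part is 7.64 to 12.7 in the tyramine libraries and 105 to 129 in the control libraries, while the transport part is 299.7 to 311.8 and 289.4 to 304.9.

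Most markers of cycling cells moved with the mitotic kinesins. Of the 4 fixed markers, Mki67, Top2a and Ccna2 fell, as did 13.3% of all genes tested. Pcna did not pass the threshold, at 114.2 to 121.4 CPM with tyramine and 130.7 to 148.5 CPM in controls. The 4 summed to 171 to 190 CPM with tyramine, mostly Pcna, against 2076 to 2539 CPM in controls, mostly Mki67 and Top2a. The part of these markers in the kinesin result was not tested.

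The promoters of the members were matched against a few fixed short sequences, and no search for other shared sequence was made. Many late cell cycle genes carry a short element near the transcript start called the CHR (cell cycle genes homology region), to which repressor and activator complexes bind, often with CCAAT boxes upstream. RefSeq promoter windows of GRCm38.p6 ran from 250 bases before to 50 bases after a transcript start. They were used for 31 of the 37 members, 11 of them mitotic and 10 of them transport kinesins. No window was used for Kif20a, Kif5a, Kif5b, Kif13b, Kif19a and Kif21b, so the promoters of these genes were not examined. Their absence does not show that RefSeq lacks a window for them. The CHR core TTTGAA, on either strand, was found in 9 of the 11 mitotic windows in 1 of the 10 transport genes (Kif1a), in 1 of 5 cilium genes (Kif27) and in 1 of 5 genes with other roles (Kif26b), against 14.7% of tested genes with a window and 17.9% of all windows. Starting within 30 bases of the transcript start, it was found in 7 mitotic genes (Kif4, Kif11, Kif15, Kif18b, Kif20b, Kif22 and Kif23) in 0 transport and 0 cilium genes and in Kif26b among the other roles, against 2.67% of tested genes with a window. The variant TTCGAA was found only in the window of Kif24 among the 31 genes, against 2.42% of tested genes with a window. CCAAT, on either strand, was found in 7 mitotic, 3 transport and 3 cilium genes and in 1 with another role, against 43.4% of tested genes with a window, and its letters can share an end base with those of the CHR. Kif14 and Kif2c, which also fell, held the CHR core only farther out, beginning 228 and 103 bases before the start. The windows of Kif18a and Kif2b held no CHR core. A match describes letters and is neither a shown binding site nor a cause.

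The stretches from 100 bases before to 30 bases after the start are shown for 6 mitotic kinesins with a CHR core near the start, for Kif18a, a mitotic kinesin with none in its window, and for Kif3a, a transport kinesin that rose. Capitals mark the CHR core (TTTGAA, or TTCAAA where it lies on the other strand) and CCAAT (or ATTGG on the other strand), and each runs 5′ to 3′ along the strand of its gene. The positions are chrX:100625965-100626094 (plus strand) for Kif4, chr19:37376282-37376411 (plus strand) for Kif11, chr9:122950981-122951110 (plus strand) for Kif15, chr7:127042391-127042520 (minus strand) for Kif22, chr9:61946770-61946899 (minus strand) for Kif23, chr19:34922258-34922387 (plus strand) for Kif20b, chr2:109280638-109280767 (plus strand) for Kif18a and chr11:53567269-53567398 (plus strand) for Kif3a.
Kif4: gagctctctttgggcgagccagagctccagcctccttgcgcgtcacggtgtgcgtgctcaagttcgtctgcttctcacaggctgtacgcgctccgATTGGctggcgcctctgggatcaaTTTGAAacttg
Kif11: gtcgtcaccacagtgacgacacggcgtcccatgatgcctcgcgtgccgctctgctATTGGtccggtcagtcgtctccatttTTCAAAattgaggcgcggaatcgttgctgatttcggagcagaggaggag
Kif15: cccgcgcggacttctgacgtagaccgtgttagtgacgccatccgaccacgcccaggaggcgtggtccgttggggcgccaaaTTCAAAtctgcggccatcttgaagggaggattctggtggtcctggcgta
Kif22: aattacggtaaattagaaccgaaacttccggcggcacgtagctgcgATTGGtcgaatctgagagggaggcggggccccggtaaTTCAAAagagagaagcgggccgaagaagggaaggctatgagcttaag
Kif23: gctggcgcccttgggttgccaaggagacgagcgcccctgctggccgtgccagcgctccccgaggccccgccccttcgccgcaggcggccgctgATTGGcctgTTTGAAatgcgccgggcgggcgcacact
Kif20b: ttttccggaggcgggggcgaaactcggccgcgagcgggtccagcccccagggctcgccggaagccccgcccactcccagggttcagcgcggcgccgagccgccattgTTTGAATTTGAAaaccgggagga
Kif18a: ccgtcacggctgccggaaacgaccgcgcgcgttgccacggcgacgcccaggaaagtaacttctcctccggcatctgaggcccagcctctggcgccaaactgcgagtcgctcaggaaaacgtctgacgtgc
Kif3a: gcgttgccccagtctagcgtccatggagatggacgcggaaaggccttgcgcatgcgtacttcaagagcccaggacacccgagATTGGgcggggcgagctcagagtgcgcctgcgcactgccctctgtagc
In Kif11, Kif15 and Kif22 the core lies on the other strand and begins 19, 19 and 17 bases before the start. In Kif23 and Kif4 it begins 2 and 19 bases after the start, with ATTGG beginning 7 and 5 bases before it, and Kif20b holds 2 cores next to each other.

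**Figure D3:**
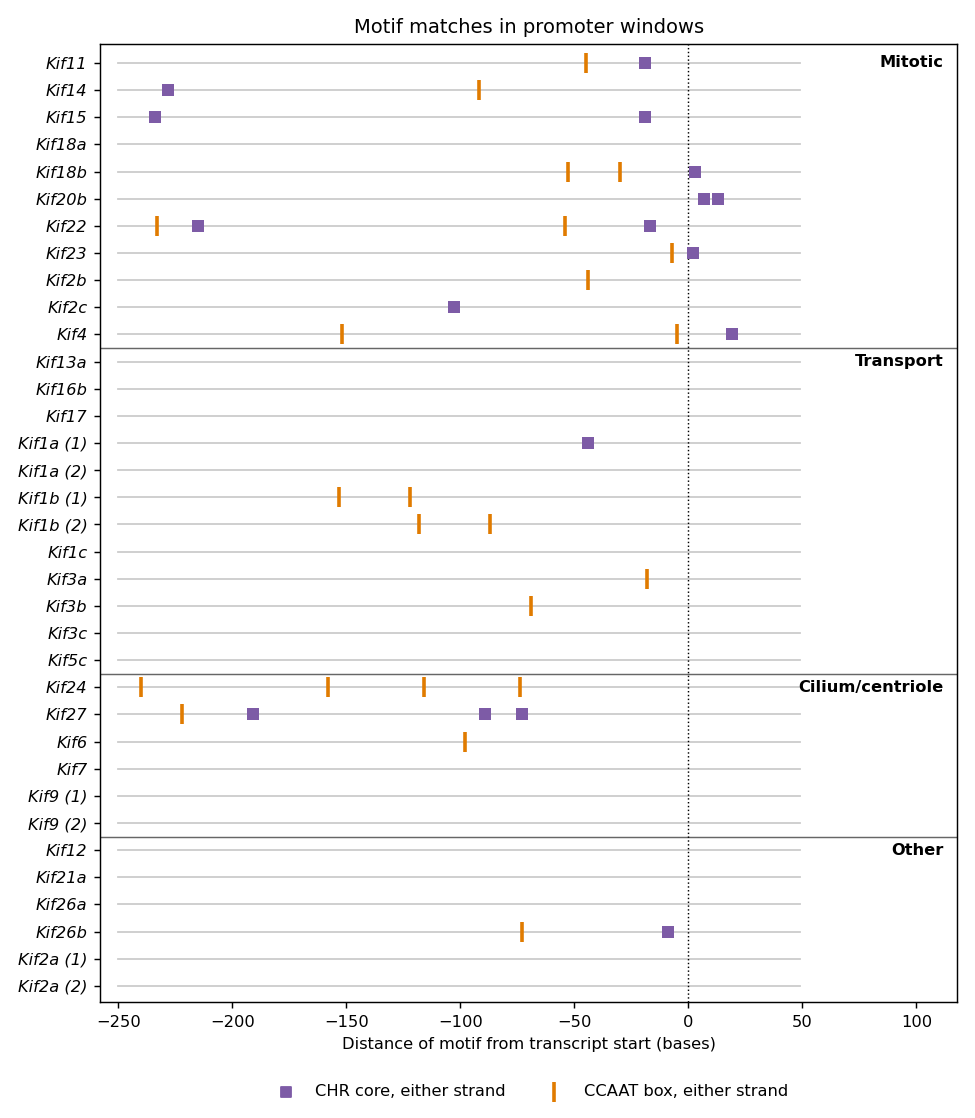
Positions of the CHR core (squares) and of CCAAT (bars), both strands, in 35 promoter windows of 31 kinesin genes, against the distance from the transcript start in bases. Squares gather around the start in 7 of the 11 mitotic rows and are absent from all transport rows but 1 of Kif1a, while Kif27 and Kif26b are the other genes with squares.

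Among kinesins that build the spindle, Kif11 and Kif15 fell. Kif11, the motor (Eg5) that slides spindle poles apart, had 5.54, 8.49 and 3.79 CPM in the tyramine libraries, against 138, 147 and 187 CPM in the controls. It fell 26.4-fold (-4.72 on the log2 scale, SE 0.29; adjusted p = 4.06e-06 by edgeR). Kif15, which can take over from Kif11 once a bipolar spindle has formed, had 4, 4 and 0 counts with tyramine, or 0.141, 0.126 and 0 CPM, against 49.3, 53.7 and 68.1 CPM in controls. That drop was 607-fold (-9.25 on the log2 scale, SE 0.51; adjusted p = 1.96e-06 by edgeR), so the spare motor was down to a handful of counts while Kif11 kept 3.78% of its control mean. Kif2c, the depolymerase MCAK that corrects wrong attachments at centromeres, had 1.34, 0.283 and 0.0696 CPM with tyramine and 38.5, 42.3 and 36.3 CPM in controls. It fell 69.2-fold (-6.11 on the log2 scale, SE 0.74, edgeR adjusted p = 0.000287). The fall was 212-fold without tyramine replicate 1, which held 38 of its 49 tyramine counts. Without tyramine replicate 3 the log2 fold change was -5.60, a smaller fall.

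Kinesins of chromosome arms and chromosome alignment included Kif4, the only tested member with 0 counts in every tyramine library. Kif4, a chromokinesin that binds chromosome arms and shortens the midzone together with Prc1 (GRCm38 chromosome X, 100625737 to 100727214, plus strand, protein-coding), had 0 counts in all 3 tyramine libraries, against 84.2, 70.1 and 87.6 CPM in controls. Against a floor of 3 counts per library it was at least 794-fold lower (edgeR adjusted p = 8.08e-07), a bound that covers counting error only. Its exons overlap those of Pdzd11, on the other strand, which kept 312, 174 and 341 counts with tyramine against 287, 483 and 473 in controls, and the pseudogene Kif4-ps was at 0 throughout. Kif22, the chromokinesin Kid that pushes chromosome arms away from the poles, had 4.02, 3.30 and 1.91 CPM with tyramine and 33.1, 49.8 and 35.3 CPM in controls. It fell 12.8-fold (-3.67 on the log2 scale, SE 0.35; adjusted p = 6.35e-05 by edgeR).

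The kinesin-8 motors, which limit microtubule growth at the plus end, were the low and variable members. Kif18a, needed to hold chromosomes at the metaphase plate, had 0.141, 1.35 and 5.15 CPM in tyramine replicates 1 to 3, against 10.6, 8.34 and 7.23 CPM in controls. The groups did not overlap, but the tyramine libraries spread widely, and the log2 fold change of -1.97 (SE 0.95) did not pass the threshold (edgeR adjusted p = 0.167). Without tyramine replicate 3 the log2 fold change was -3.52 and passed (edgeR adjusted p = 0.0117). Kif18b, which acts on astral microtubules, had 0, 0 and 26 counts with tyramine, or 0, 0 and 0.905 CPM, and 7.84, 12.1 and 12.0 CPM in controls. It fell (-5.13 on the log2 scale, SE 1.37; adjusted p = 0.0208 by edgeR), but the call was lost with DESeq2 (adjusted p = 0.0572) and without any 1 control library (edgeR adjusted p = 0.0644 to 0.0881). With tyramine replicate 3 left out it was at least 106-fold lower, both remaining tyramine libraries being at 0, and with tyramine replicate 2 left out 23.2-fold.

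Kinesins of the midzone and cytokinesis fell by very unequal amounts. Kif14, which works with citron kinase at the midbody, had 0.141, 0.126 and 0.313 CPM with tyramine and 28.1, 22.02 and 37.7 CPM in controls. It fell 149-fold (-7.22 on the log2 scale, SE 0.49; adjusted p = 7.11e-06 by edgeR). Kif20a (MKLP2), which brings Aurora B to the midzone, had 2.15, 0.0629 and 3.34 CPM with tyramine and 51.1, 54.2 and 59.7 CPM in controls. It fell 29.8-fold (-4.90 on the log2 scale, SE 0.84; adjusted p = 0.00279 by edgeR), or 50.7-fold without tyramine replicate 3. Without tyramine replicate 2 its log2 fold change was -4.32, a smaller fall. Kif20a shares 977 bases of exon with Cdc23 on the other strand, which had 952, 1267 and 1530 counts with tyramine and 1430, 1936 and 1837 in controls.

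Of the called mitotic members, Kif23 and Kif20b kept the largest shares of their control means, at 34.1% and 9.77%, and Kif18a, not called, kept 25.4%. Kif20b, a kinesin of late cytokinesis, had 8.69, 22.4 and 11.7 CPM with tyramine and 105, 159 and 173 CPM in controls, a 10.2-fold fall (-3.35 on the log2 scale, SE 0.35; adjusted p = 9.45e-05 by edgeR). Kif23 (MKLP1), the motor part of the centralspindlin complex, had 31.5, 58.9 and 57.2 CPM with tyramine and 143, 135 and 155 CPM in controls. It fell 2.93-fold (-1.55 on the log2 scale, SE 0.22; adjusted p = 0.000718 by edgeR), the smallest change among the 10 called mitotic members. Racgap1, its partner in centralspindlin, had 0.141, 2.27 and 0.139 CPM with tyramine against 58.7, 57.6 and 62.1 CPM in controls, a fall of 68.2-fold (-6.09 on the log2 scale, SE 0.87; adjusted p = 0.00111 by edgeR). Within the tyramine group no single library held the residual transcripts: replicate 1 was highest for Kif15, Kif22 and Kif2c, replicate 2 for Kif11, Kif20b and Kif23, and replicate 3 for Kif14, Kif18a, Kif18b and Kif20a.

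**Figure D4:**
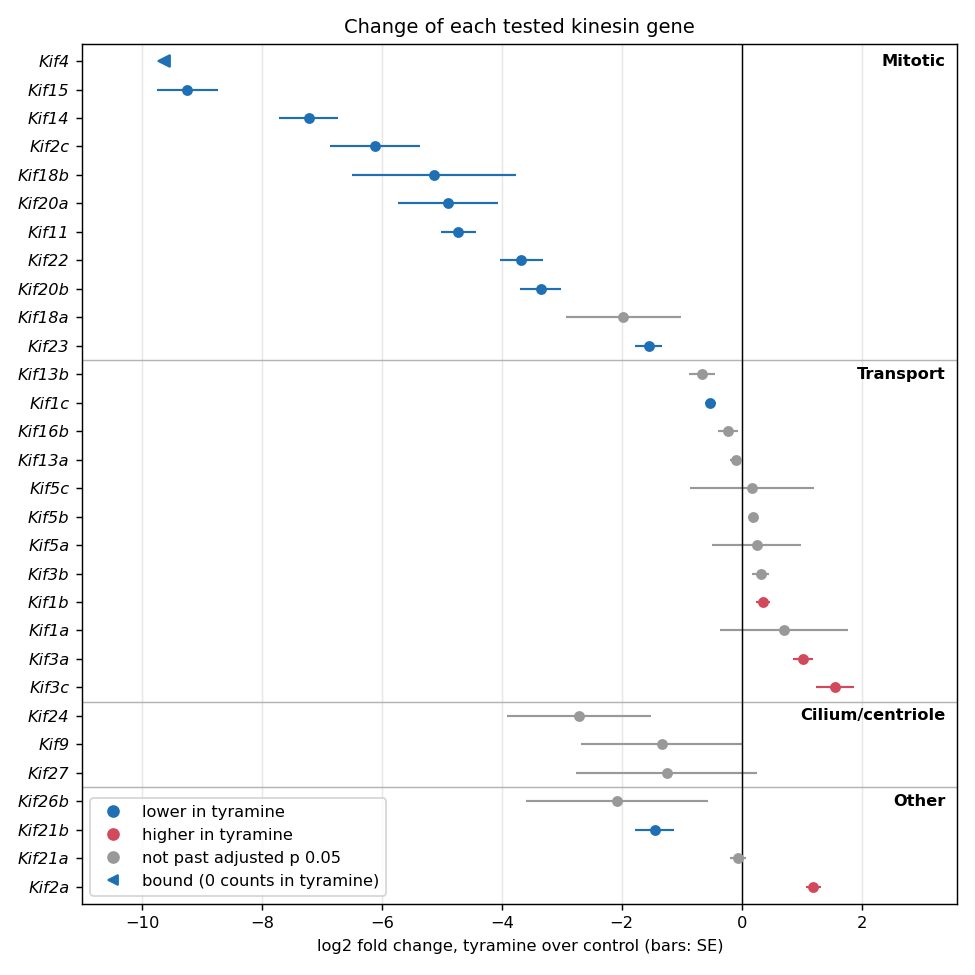
Log2 fold change of each of the 30 tested kinesin genes, tyramine over control, with SE bars, grouped by role. The 10 called mitotic genes run from -1.55 (Kif23) to -9.25 (Kif15), with Kif4 drawn at its lower bound of 794-fold, while the 12 transport genes lie between -0.66 and 1.55.

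Among the transport kinesins, the kinesin-2 genes Kif3a and Kif3c and the kinesin-3 gene Kif1b rose, and Kif1c fell. Kinesin-2, made of KIF3A, KIF3B and the adaptor KIFAP3, carries cargo along cilia and in the cytoplasm. Kif3a had 96.7, 81.8 and 91.9 CPM with tyramine, against 37.5, 49.6 and 45.8 CPM in controls. It rose 2.03-fold (1.02 on the log2 scale, SE 0.16; adjusted p = 0.0013 by edgeR). Its partner Kif3b had 93.3, 79.8 and 90.2 CPM with tyramine and 72.3, 75.3 and 63.5 CPM in controls, which did not pass the threshold (0.32 on the log2 scale, SE 0.14; adjusted p = 0.128 by edgeR). The adaptor gene Kifap3 had 4.31, 13.2 and 4.84 CPM with tyramine and 6.82, 7.73 and 13.2 CPM in controls (edgeR adjusted p = 0.736), overlapping groups.

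Kif3c, a further kinesin-2 heavy chain, had 22.9, 30.3 and 25.7 CPM with tyramine, against 10.4, 5.84 and 10.6 CPM in controls. It rose 2.93-fold (1.55 on the log2 scale, SE 0.32; adjusted p = 0.00571 by edgeR). This value is uncertain, because 2617 bases of a Kif3c exon lie opposite the antisense gene 1110002L01Rik, whose counts were 659, 1061 and 791 with tyramine and 259, 308 and 292 in controls, close to those of Kif3c at 649, 963 and 739 against 317, 213 and 303. The strand setting of the counting is not given, so reads of both genes cannot be told apart.

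Kif1c, a kinesin-3 that carries vesicles and RNA to the cell edge, had 493, 481 and 433 CPM with tyramine and 687, 656 and 674 CPM in controls. It fell 1.43-fold (-0.52 on the log2 scale, SE 0.09; adjusted p = 0.00191 by edgeR), a small change with no overlap between the groups. Kif1b, a kinesin-3 carrier of mitochondria and vesicle precursors, had 154, 162 and 183 CPM with tyramine and 127.0, 122.0 and 139.6 CPM in controls. Its rise of 1.29-fold lay at the threshold (0.36 on the log2 scale, SE 0.12; adjusted p = 0.0460 by edgeR), and 5 of 14 alternatives called it. Kif13b, a kinesin-3 that carries membrane proteins, had 26.8, 34.9 and 23.0 CPM with tyramine and 45.9, 49.9 and 38.1 CPM in controls, just short of the threshold (-0.66 on the log2 scale, SE 0.22; adjusted p = 0.0536 by edgeR).

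Kif5b, the widely expressed heavy chain of conventional kinesin, was the most abundant kinesin per length in both groups, at 153 ± 3.33 CPM per kb with tyramine and 135 ± 8.77 CPM per kb in controls (SD, n = 3 each). Its levels were 1252, 1213 and 1202 CPM with tyramine and 997, 1115 and 1121 CPM in controls, and the difference of 0.18 on the log2 scale (SE 0.08) did not pass the threshold (edgeR adjusted p = 0.135). Kif1c came next per length, at 64.5 ± 4.36 CPM per kb with tyramine and 92.4 ± 2.14 in controls. After them stood Kif3a, Kif21a, Kif2a and Kif13a with tyramine, at 25.1 to 20.7 CPM per kb, where Kif3a and Kif21a lay within 1 SD of each other, as did Kif2a and Kif13a. In controls the next in order were Kif21a, Kif13a, Kif11, Kif20b and Kif23, at 25.8 to 18.3 CPM per kb and within 1 SD of their neighbours. So 3 mitotic motors stood among the 7 most abundant kinesins per length in controls, and a further one, Kif4, was at rank 8 (14.6 CPM per kb). With tyramine, 0 mitotic motors were among the top 8.

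Kif13a, which moves cargo from the trans-Golgi network, had 172, 169.8 and 162 CPM with tyramine and 183, 169.9 and 185 CPM in controls, overlapping groups (-0.10 on the log2 scale, SE 0.10; adjusted p = 0.543 by edgeR). Kif16b, which carries early endosomes, had 67.5, 90.7 and 101 CPM with tyramine and 104, 93.1 and 106 CPM in controls (-0.23 on the log2 scale, SE 0.16; adjusted p = 0.364 by edgeR). The neuronal kinesins Kif1a, Kif5a and Kif5c were low in both groups. Kif1a had 0.598 to 5.99 CPM with tyramine and 0.757 to 2.39 CPM in controls, Kif5a 2.26 to 5.23 and 2.27 to 3.24, and Kif5c up to 1.29 and 1.40, and none of these passed the threshold. Of 5 neuronal or enteroendocrine markers, 4 were tested and 2 fell (Chga and Chgb), against 13.3% of all genes tested. Neurod1 (0.60 on the log2 scale) and Syp (0.24) were not past the threshold, and Tubb3 was not tested. The 5 summed to 289.9 to 468 CPM with tyramine and 995 to 1031 CPM in controls, mostly from Chgb at 275 to 450 and 877 to 944 CPM. The part of these markers in the levels of these kinesins was not tested.

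Of the 6 members with other roles, Kif2a rose, Kif21b fell, Kif21a and Kif26b were not past the threshold, and Kif12 and Kif26a had too few counts to test. Kif2a is a depolymerase related to Kif2c that acts at spindle poles and, in resting cells, trims microtubules and cilia. It had 132, 141 and 131 CPM with tyramine, against 53.0, 64.3 and 59.7 CPM in controls. It rose 2.29-fold (1.19 on the log2 scale, SE 0.13; adjusted p = 0.000124 by edgeR), so these related depolymerase genes moved in opposite directions. Kif2a shares 1229 bases of exon with Dimt1 on the other strand, which had 10 to 24 counts with tyramine and 31 to 80 in controls, far fewer than the 3750 to 4495 and 1611 to 2346 counts of Kif2a.

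Kif21b, a kinesin-4 that regulates microtubule growth, had 16.4, 28.6 and 11.6 CPM with tyramine and 62.0, 51.2 and 41.4 CPM in controls. It fell 2.73-fold (-1.45 on the log2 scale, SE 0.33; adjusted p = 0.0091 by edgeR), a call lost without control replicate 1 (edgeR adjusted p = 0.0540). Its relative Kif21a, which restrains microtubule growth at the cell cortex, had 157, 158 and 164 CPM with tyramine and 137, 170.3 and 193 CPM in controls, with overlap (-0.06 on the log2 scale, SE 0.13; adjusted p = 0.791 by edgeR). Of the 6 cilium and centriole members, 3 were tested and 0 called. Kif24, a centriolar kinesin that holds back cilium formation, had 0.671, 3.81 and 0 CPM with tyramine and 6.45, 11.2 and 11.8 CPM in controls (-2.71 on the log2 scale, SE 1.203; adjusted p = 0.133 by edgeR). It passed with DESeq2 (adjusted p = 0.0324), with limma-voom (adjusted p = 0.0339), and with edgeR when tyramine replicate 2 or 3 was left out (edgeR adjusted p = 0.0230 and 0.0496).

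Kif27, a relative of Kif7 linked to motile cilia, had 4, 0 and 156 counts with tyramine and 209, 149 and 66 in controls, and only without tyramine replicate 3 was it past the threshold (log2 fold change -5.93; edgeR adjusted p = 0.00856). Kif9, known from sperm flagella, had 48, 0 and 44 counts with tyramine and 57, 91 and 106 in controls, and was not past the threshold. Kif7, a Hedgehog pathway regulator of the cilium tip, had 2 to 4 counts with tyramine and 2 to 46 in controls. Kif6 had 25 counts in total with tyramine and 2 in controls, and Kif19a 0 and 17. Among the remaining untested members, Kif17 had 9 counts in total with tyramine and 26 in controls, Kif12 had 31 and 4, and Kif26a had 2 and 0. Kif26b was tested at 0 to 0.353 CPM with tyramine and 0.247 to 1.09 CPM in controls. The 4 multiciliated cell markers summed to 1.06 to 3.06 CPM with tyramine and 1.97 to 2.95 CPM in controls, and 0 of the 2 tested changed.

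Genes that work with kinesins were read from fixed lists. Of all genes tested, 13.3% fell and 12.5% rose. Of 17 partners of mitotic kinesins, 16 fell and 0 rose, and Numa1 missed the threshold. Their median was -3.86 on the log2 scale. Aurka, the spindle pole kinase, fell 14.5-fold (10.4 ± 1.11 CPM with tyramine and 151 ± 16.4 CPM in controls; SD, n = 3 each), and Hmmr, a spindle assembly factor, fell 283-fold. Incenp, scaffold of the chromosomal passenger complex, fell 3.99-fold, and Prc1, the midzone bundler that recruits KIF4, fell 8.68-fold (edgeR adjusted p = 3.93e-07 to 1.07e-05 over these 4). Of 5 kinesins that the symbol rule does not match, Kifc1, Cenpe and Kifc3 fell and Kifc2 and Kifc5b were not past the threshold. Cenpe, the kinetochore motor that brings chromosomes to the equator, had 9.96, 21.2 and 23.8 CPM with tyramine, against 181, 246 and 285 CPM in controls, a 13.0-fold fall. Kifc1, a minus-end motor that focuses spindle poles, fell 27.0-fold, with the reserve that Kifc5b is a near-identical copy. When tyramine replicate 1 or 3 or any 1 control library was left out, 2 of the 5 fell in place of 3, and 4 fell without tyramine replicate 2.

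**Figure D5:**
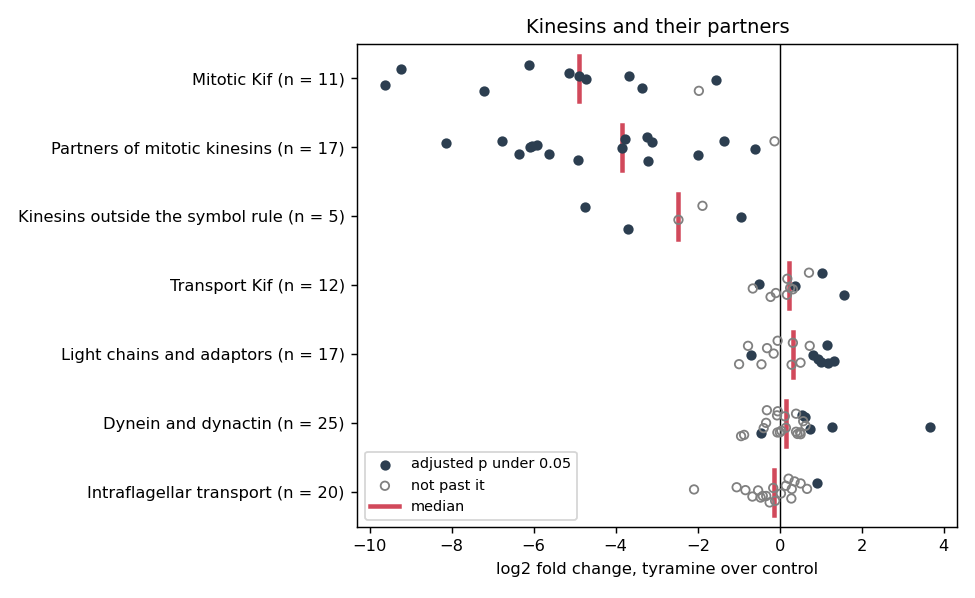
Log2 fold change, tyramine over control, of each tested gene in 7 lists: mitotic and transport kinesins, kinesins outside the symbol rule, and 4 lists of genes that work with kinesins or beside them, with filled points past the threshold and red bars at the medians. The mitotic kinesins and their partners have medians of -4.90 and -3.86, the kinesins outside the symbol rule one of -2.47, and the transport kinesins, light chains and adaptors, dynein and dynactin, and intraflagellar transport have medians between -0.14 and 0.32.

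In the lists of transport machinery most members missed the threshold, and the calls were in both directions. Among all genes tested, 12.5% rose and 13.3% fell. Of 17 tested light chains and cargo adaptors, 6 rose and 1 fell, and the other 10 missed the threshold. Their median was 0.32 on the log2 scale. Spag9, an adaptor (JIP4) that links lysosomes to motors, rose 1.76-fold, the light chain gene Klc2 rose 2.48-fold another, Klc4, fell 1.64-fold, and Bicd2, an adaptor of dynein, rose 2.21-fold (edgeR adjusted p = 0.000409 to 0.00729). With any 1 control library left out, 3 or 4 of the adaptor list rose, and without tyramine replicate 1, 3 fell. Of 25 tested genes of cytoplasmic dynein and dynactin, the minus-end transport motor, 5 rose and 1 fell, and 19 missed the threshold, and 2 or 3 rose with any 1 control library left out. Their median was 0.15 on the log2 scale. Ndel1 and Pafah1b1, which strengthen dynein's grip, rose 2.40-fold and 1.66-fold, Dync1li1, a light intermediate chain, rose 1.52-fold and Dctn1, the large dynactin subunit, fell 1.38-fold (edgeR adjusted p = 0.000155 to 0.0169). The numbers that rose and fell ranged from 2 to 6 and from 1 to 4 when single libraries were left out. Of 20 tested genes of intraflagellar transport, in which kinesin-2 is the outward motor, 1 rose (Ift81, 1.87-fold; edgeR adjusted p = 0.0335) and 19 were not past the threshold. The call of Ift81 was absent with library totals alone, with no filter on low counts and with the replicate number as a block. It was also absent without tyramine replicate 2 or any 1 control library.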

How the data were processed

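The authors deposited 1 table of raw counts per gene symbol with a column for each of the 6 libraries, whose names match the sample titles. The submitters' processing notes name STAR 2.5.3a and the build mm10. Counting program, annotation, strand setting and use of the kit's molecular identifiers are not stated in the labels or the submitters' processing notes. Low values (1 to 8) were even in 72.6% to 78.7% of cases per library, so counts may not be independent molecules, and floors and bounds cover counting error only.

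From the counts, genes were filtered (filterByExpr, minimum count 10, minimum total 15), scaled by TMM factors of 0.962 to 1.04 and tested with edgeR 4.0.16 (quasi-likelihood, robust, R 4.3.3), group as the only term, p-values adjusted over all 12139 genes. SE is the log2 fold change over the root of its F statistic. CPM use TMM-scaled library sizes, and CPM per kb divide by the union of exons in GENCODE M21 on GRCm38. The floor was 3 counts per library. The code was tested on simulated counts. DESeq2 1.42.0, limma-voom (limma 3.58.1) and other alternatives are in the closing section; halved counts were added after the data were seen.

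Members and lists were chosen with earlier results of these data known. Values in every library are printed by rule for called and mitotic members and 8 transport members; up to 4 called genes, smallest p first, are named per partner list. Other named genes, including Racgap1, Kifap3, Cenpe and genes overlapping members, were chosen after their values were seen.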

Additional observations from a re-analysis of the deposited data

How the results depend on the processing

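Of 14 alternatives for each result, the number of mitotic members that fell ranged from 9 to 11 and the number of all members that fell from 10 to 15. Members that rose numbered 3 or 4, and transport members that rose 2 or 3. Transport members that fell numbered 2 in place of 1, Kif13b joining Kif1c, with library totals alone, a filter of 1 CPM in 3 libraries, DESeq2, limma-voom and halved counts, and 1 to 2 with single libraries left out. All genes called numbered 3127, and 1977 to 3307 with single libraries left out; without control replicates 1, 2 or 3 they were 1995, 1977 and 2075. With the replicate number as a block, 2594 genes were called, with 12 members lower and 3 higher. Libraries with the same number showed no shared deviation (correlations of -0.0239, -0.0148 and 0.00619). Spread particular to each library can hide a shared deviation, so whether the numbers pair the samples remains unknown. With single libraries left out, the sign of 4 members short of the threshold reversed: Kif21a ran from -0.1916 to 0.0501 on the log2 scale (positive without control replicate 3), Kif1a from -0.75 to 1.19 (negative without tyramine replicate 3), Kif5a from -0.26 to 0.46 (negative without tyramine replicate 1) and Kif5c from -0.0430 to 0.61 (negative without control replicate 2, and -0.0121 without tyramine replicate 2). The cause was not tested. Depth limits the residual levels of Kif4, Kif14, Kif15 and Kif18b, which rest on 0 to 26 tyramine counts.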

Other observations

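Kif4 had the highest control level, 80.6 CPM on average, of the 87 tested genes with 0 counts in every tyramine library, and Knl1, the next, averaged 42.7 CPM. In controls, 2335 tested genes stood at or above the level of Kif4. No tyramine library held a Kif4 count, whereas Kif11 kept 157, 270 and 109 counts, Kif20b 246, 711 and 335 and Cenpe, a kinetochore kinesin, 282, 675 and 683.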
